A study of Mus musculus with 204 samples.

Results

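Fos encodes a subunit of the transcription factor AP-1 and is a classical immediate early gene. Among 204 single cells picked from the myenteric plexus of the mouse distal colon, neurons with Fos transcript were compared with neurons without it. A neuron was a cell with at least 3 of the 5 genes Elavl3, Elavl4, Snap25, Stmn2 and Syt1 at 2 or more on the deposited log2(RPKM + 1) scale, and 149 cells met that rule. Of these, 58 neurons had Fos at 3 or more and are called Fos-high, 79 had Fos below 1 and are called Fos-low, and 12 lay between. The Fos-high and Fos-low neurons together are 137 of the 204 cells. Plate 1 held 23 Fos-high and 24 Fos-low neurons, plate 2 held 22 and 18, and plate 3 held 13 and 37.

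Every cell came from VGLUT2-tdTomato mice, in which a red fluorescent protein reports the gene Slc17a6, the vesicular glutamate transporter VGLUT2. The muscle layers holding the plexus were dissociated, the cells were kept in culture overnight, and red cells were picked by hand, so Fos-high and Fos-low neurons share the dissociation and the culture. The labels name no treatment, age, animal or culture. Each plate therefore counts as 1 sample, cells are not replicates, and no test, standard error or p-value was computed. What is given is the difference of the mean log2(RPKM + 1) on each of the 3 plates, Fos-high minus Fos-low, with the spread of the single cells, and this scale understates differences of low transcripts.

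Immediate early genes are transcribed within minutes of a stimulus without new protein synthesis, through factors such as CREB and SRF that are already in the nucleus. In neurons the stimulus is typically calcium entry or cAMP, and Fos protein then pairs with Jun proteins as AP-1 and binds genes that are transcribed later. In the gut, Fos is used as a marker of enteric neurons that have recently been active, and it also responds to growth factors, stretch and tissue handling.

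The Fos level set the classes and is given as a description. It ran over 3.05, 5.13 and 8.74 (lowest, median and highest) in Fos-high neurons and over 0, 0.06 and 0.93 in Fos-low neurons, and 38 neurons were listed at 0. The Fos-high neurons nearest the limit had 3.05, 3.05 and 3.07, and the neurons just below it had 2.58, 2.71 and 2.83. At the lower limit the nearest Fos-low neurons had 0.77, 0.87 and 0.93, and the next neurons above had 1.15, 1.28 and 1.53. The 12 neurons between the limits are few beside the classes, as the plot of Fos by plate shows. Fos-high cells were 38.9% of all neurons (95% exact Clopper-Pearson interval 31.1 to 47.2, which covers counting error only). They were 43.4% of neurons on plate 1, 51.2% on plate 2 and 24.5% on plate 3. Of the 55 cells that did not meet the neuron rule, 23 (41.8%, 28.7 to 55.9) also had Fos at 3 or more, so the transcript was not limited to cells that met the rule.

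**Figure D1:**
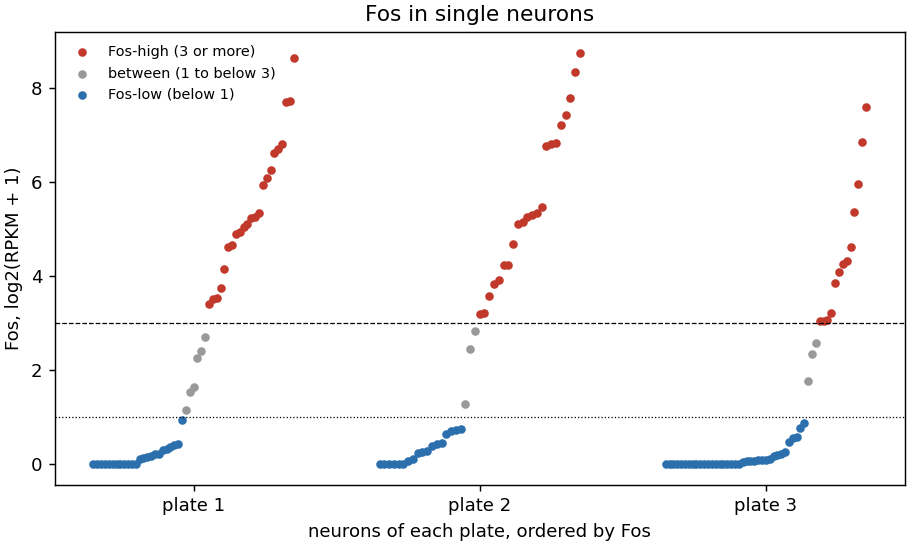
Fos in each of the 149 neurons, as log2(RPKM + 1) on the vertical axis, with the neurons of each plate ordered by Fos. Red points are Fos-high, grey points lie between, blue points are Fos-low, and the lines mark 3 and 1; plate 3 has 13 red points, against 23 on plate 1 and 22 on plate 2.

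The neuron label was checked on 17 pan-neuronal genes outside the rule. Uchl1, a neuronal ubiquitin hydrolase, was at 2 or more in 58 of 58 Fos-high and 79 of 79 Fos-low neurons. Tubb3, the neuronal beta tubulin, was at 2 or more in 57 of 58 Fos-high and 77 of 79 Fos-low neurons. Other members of the list were less general: Chgb, a granin of secretory granules, was at 2 or more in 46 Fos-high and 62 Fos-low neurons, Syp in 33 and 66, and Rbfox3, the nuclear antigen NeuN, in 25 and 46. Slc17a6 itself was at 2 or more in 40 of 58 Fos-high neurons (69.0%) and 39 of 79 Fos-low neurons (49.4%). Its mean was higher in Fos-high neurons by 0.67, 0.51 and 1.17 on plates 1, 2 and 3.

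Depth was similar in the classes. Median reads assigned to genes were 3457940 in Fos-high and 3666642 in Fos-low neurons on plate 1, 4321459 and 4119083 on plate 2, and 5828824 and 5162155 on plate 3. Transcripts of other cell types were less even. At least 5 of 10 smooth muscle genes were at 2 or more in 17 of 58 Fos-high neurons (29.3%) and in 10 of 79 Fos-low neurons (12.7%). The summed level of the 10 genes had a median of 60.8 and a range of 2.39 to 69450 CPM (reads per 1000000 reads of the cell) in Fos-high neurons, against a median of 39.5 and a range of 1.42 to 2381 in Fos-low neurons, and no member was at 0 in every cell. At least 50% of the fibroblast list was at 2 or more in 6 Fos-high and 2 Fos-low neurons, and at least 50% of the glial list in 5 and 1. Mitochondrial transcripts took a median of 3.69% of reads in Fos-high and 3.08% in Fos-low neurons. Differences without the neurons that carried smooth muscle RNA are given below where they end a call. For genes that were not called they are given for some only, so their absence does not mean that a value held. The part of the other transcripts was not tested.

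The sequences around the start sites of 4 genes are shown as examples that were not picked by a rule. The cAMP response element, the site of CREB, is the textbook link between neuronal activity and immediate early genes. The sequences are RefSeq promoters on GRCm38.p6, each 300 bases, from 250 before to 50 after the start. Nr4a1 lies at chr15:101266596-101266895 on the plus strand, Plk2 at chr13:110394794-110395093 on the plus strand, Cartpt at chr13:99900634-99900933 on the minus strand and Tac1 at chr6:7554811-7555110 on the plus strand. Capitals mark the element TGACGTCA and its core TGACG, each on either strand, so that CGTCA is the core read on the opposite strand.
Nr4a1 promoter: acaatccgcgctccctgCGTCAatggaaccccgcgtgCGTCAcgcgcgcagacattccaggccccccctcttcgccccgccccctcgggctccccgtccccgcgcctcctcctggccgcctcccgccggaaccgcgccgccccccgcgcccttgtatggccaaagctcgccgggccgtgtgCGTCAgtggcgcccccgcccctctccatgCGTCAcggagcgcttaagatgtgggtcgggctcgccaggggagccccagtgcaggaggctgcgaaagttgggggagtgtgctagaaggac
Plk2 promoter: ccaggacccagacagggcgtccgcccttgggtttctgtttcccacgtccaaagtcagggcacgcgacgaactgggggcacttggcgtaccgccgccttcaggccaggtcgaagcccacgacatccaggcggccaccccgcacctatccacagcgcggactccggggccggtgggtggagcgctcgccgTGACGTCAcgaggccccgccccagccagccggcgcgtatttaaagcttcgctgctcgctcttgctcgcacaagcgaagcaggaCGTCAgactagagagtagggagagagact
Cartpt promoter: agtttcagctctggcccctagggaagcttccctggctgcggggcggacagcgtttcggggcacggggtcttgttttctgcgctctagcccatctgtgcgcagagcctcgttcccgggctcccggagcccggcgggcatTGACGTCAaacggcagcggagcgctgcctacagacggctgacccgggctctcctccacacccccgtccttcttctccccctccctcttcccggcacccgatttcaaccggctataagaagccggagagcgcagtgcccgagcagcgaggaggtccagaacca
Tac1 promoter: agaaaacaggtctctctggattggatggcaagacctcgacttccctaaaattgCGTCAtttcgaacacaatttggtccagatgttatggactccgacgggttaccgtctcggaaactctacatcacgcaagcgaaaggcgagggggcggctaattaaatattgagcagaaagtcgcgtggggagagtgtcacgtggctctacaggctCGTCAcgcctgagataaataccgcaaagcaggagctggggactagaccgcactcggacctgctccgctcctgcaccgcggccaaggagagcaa
The full element stood in the windows of Plk2, where it began at base -62 from the start site, and of Cartpt, where it began at base -112. Of the 19 genes called higher below that matched a promoter, only these 2 held the full element. Nr4a1 had 4 copies of the core and no full element, and Tac1 had 2 copies of the core. The element occurs in 1.79% and the core in 20.8% of all 32851 promoters in the table, and the core is contained in the element. The AP-1 motif TGANTCA, present in 7.81% of promoters, was in none of these 4 windows. These are matches of letters and not measured sites.

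Between the classes 15042 genes were compared, those at 2 or more in at least 10% of the compared neurons, without Fos. A gene was called where the difference was 1 or more in the same direction on every plate. By that rule 33 genes (0.219%) were higher and 14 genes (0.0931%) were lower in Fos-high neurons. The lists of genes described here were chosen with earlier results of these data known. Neuropeptide precursors, receptors and neurofilament genes were among them, and 3 of the higher genes are on the immediate early lists.

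Nr4a1 (chr15:101254269-101274795 on mm10), an orphan nuclear receptor and immediate early transcription factor, was the gene of the early lists with the largest difference. On plate 1 it ran over 0, 3.06 and 9.25 (lowest, median, highest) in Fos-high neurons and over 0, 0.29 and 9.06 in Fos-low neurons. On plate 2 these were 0, 4.58 and 10.1 in Fos-high and 0, 0.15 and 8.33 in Fos-low neurons. On plate 3 they were 0, 0.95 and 8.09 in Fos-high and 0, 0 and 3.78 in Fos-low neurons. The classes overlapped on every plate, but most Fos-low neurons were near 0. Nr4a1 was at 2 or more in 37 of 58 Fos-high neurons and 10 of 79 Fos-low neurons, and the means differed by 1.98, 3.40 and 1.56. The differences were 1.97, 3.98 and 1.35 without the neurons that carried smooth muscle RNA. Linear means were 44.1 RPKM in Fos-high and 24.2 RPKM in Fos-low neurons on plate 1, so Nr4a1 was not called on the ratio of mean RPKM.

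Gadd45b (chr10:80930073-80932204), a growth arrest and DNA damage inducible gene that responds early to neuronal activity, had medians of 4.39, 3.05 and 3.41 in Fos-high neurons and of 0.50, 0.35 and 0.14 in Fos-low neurons on plates 1, 2 and 3. Its means differed by 1.16, 1.88 and 1.80. Highest values were 7.63, 9.38 and 9.63 in Fos-high neurons and 8.94, 5.53 and 5.68 in Fos-low neurons, so the classes overlapped. The differences were 0.76, 0.95 and 1.05 without the neurons that carried smooth muscle RNA, and the gene was no longer called. Nor was it on the ratio of mean RPKM, where plate 1 had 29.0 RPKM in Fos-high and 41.9 RPKM in Fos-low neurons.

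Plk2 (chr13:110395046-110400844), a polo-like kinase induced by synaptic activity, had medians of 5.62, 5.99 and 4.27 in Fos-high neurons, against 4.68, 2.51 and 3.10 in Fos-low neurons. Its means differed by 1.07, 2.46 and 1.24. It was the most widely present of the 3 genes, at 2 or more in 20 of 23, 20 of 22 and 11 of 13 Fos-high neurons and in 16 of 24, 9 of 18 and 19 of 37 Fos-low neurons. They were 1.25, 2.69 and 0.78 without the neurons that carried smooth muscle RNA, and Plk2 was no longer called, nor was it on the ratio of mean RPKM.

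Of 13 listed AP-1 genes, the relatives and partners of Fos, 11 were compared. None was called, where 0.219% of all genes were called higher and 0.0931% lower, so a list this short need hold none. By any size 6 (54.55%) were higher on every plate, where 13.0% of all genes were. Another 3 (27.27%) were lower, where 15.1% were, and the median of the mean differences was 0.35. Without the neurons that carried smooth muscle RNA 4 (36.4%) were higher and 1 (9.09%) lower, where 13.3% and 14.7% of all genes were. Fosb, the closest relative of Fos, had medians of 0.57, 0.42 and 0 in Fos-high neurons and of 0, 0.01 and 0 in Fos-low neurons, with differences of 0.32, 0.48 and 0.34, and of 0.49, 1.61 and 0.31 without the neurons that carried smooth muscle RNA. It was at 2 or more in 14 of 58 Fos-high and 11 of 79 Fos-low neurons. Fosl1, another Fos family member, differed by 1.73, 0.69 and 1.06, and without the neurons that carried smooth muscle RNA by 1.41, 0.75 and -0.08. Junb, a Jun family subunit, had medians of 6.95, 5.92 and 6.05 in Fos-high and 5.77, 5.02 and 5.08 in Fos-low neurons, with differences of 1.35, 0.76 and 1.16. Junb was present in nearly every neuron of both classes. Jun, the founding member of the Jun family, differed by -1.26, 0.15 and -0.48, and so had no common direction. Atf3, a stress-induced partner of AP-1, was lower in Fos-high neurons by any size on every plate, with differences of -0.77, -0.97 and -1.27. They were -0.67, -2.11 and -1.61 without the neurons that carried smooth muscle RNA. Mafg, a small Maf protein, was also lower in all compared neurons, by -0.80, -0.42 and -0.83, but differed by 0.26 on plate 2 without the neurons that carried smooth muscle RNA. Jund, of the Jun family, differed by -0.77, -0.09 and -0.54, and by 0.29 on plate 2 without those neurons.

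Over the 3 lists of immediate early genes without Fos (AP-1 genes, other early transcription factors and early genes that are not transcription factors), 60 of 68 genes were compared. Of these 3 were called higher and none lower. By any size, 27 of the 60 (45.0%) were higher on every plate, where 13.0% of all genes were, and 4 (6.67%) were lower on every plate, where 15.1% of all genes were. The median of their mean differences was 0.36, against -0.02 over all genes compared. Without the neurons that carried smooth muscle RNA, 21 of 61 early genes (34.4%) were higher on every plate, where 13.3% of all genes were, 6 (9.84%) were lower, where 14.7% of all genes were, and the median was 0.22. Only Nr4a1 was then called. The genes of a list share cells and are not independent, and no test was made.

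Among those that missed the call, Ier2, an early nuclear factor, differed by 0.97, 1.72 and 0.73, and by 0.22 on plate 3 without the neurons that carried smooth muscle RNA. Zfp36l1, which promotes decay of messenger RNAs, differed by 0.91, 1.03 and 0.93, but by 0.55, 0.17 and -0.07 without the neurons that carried smooth muscle RNA. It was at 2 or more in 43 of the 55 non-neuronal cells. Gem, a small GTPase that restrains calcium channels, differed by 0.42, 2.21 and 1.43. Egr1, a zinc finger factor used like Fos as an activity marker, differed by 1.61 and 2.14 on plates 1 and 2 and by 0.10 on plate 3, where it differed by -0.07 without the neurons that carried smooth muscle RNA. Its plate 3 medians were 3.50 in Fos-high and 2.56 in Fos-low neurons. Btg2, an early antiproliferative gene, was lower in Fos-high neurons, with differences of -1.16, -0.78 and -0.49, and 0.47 on plate 3 without the neurons that carried smooth muscle RNA. Directions of single early genes thus varied, and the plot of the early genes by plate shows that most points lie between 0 and 1.

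Early transcripts were plentiful in Fos-low neurons too. Of the 60 genes, a Fos-high neuron had a median of 33 at 3 or more (range 12 to 47) and a Fos-low neuron a median of 28 (range 9 to 47). The plate medians were 34, 32.5 and 30 in Fos-high neurons and 31, 27 and 27 in Fos-low neurons.

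**Figure D2:**
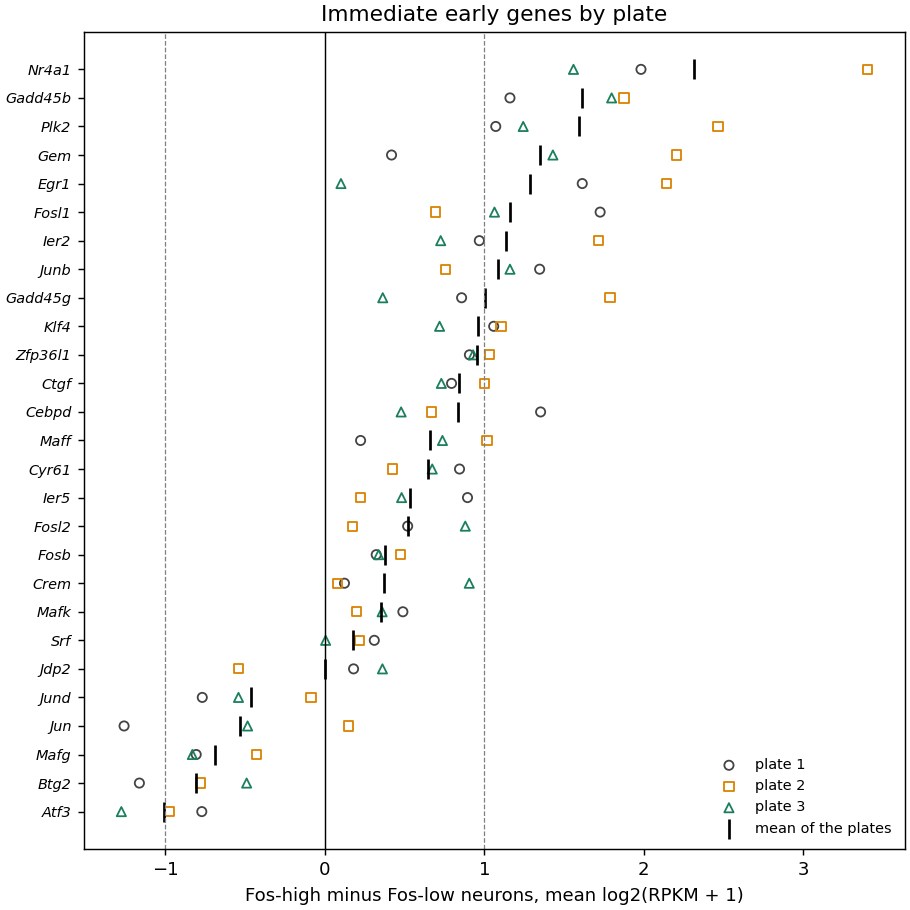
Difference of the mean log2(RPKM + 1) between Fos-high and Fos-low neurons (horizontal axis) for 27 immediate early genes, with 1 open symbol per plate, a bar for the mean of the plates and dashed lines at -1 and 1. Genes other than the AP-1 genes were picked for large differences of 1 sign on every plate. Nr4a1, Gadd45b and Plk2 lie beyond 1 on every plate, Egr1 does so on plates 1 and 2 only, and Atf3, Btg2, Mafg and Jund lie left of 0 on every plate.

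Of 18 compared later activity-dependent neuronal genes 3 were called higher (Penk, Adcyap1 and Nefm) and 1 lower (Tac1), where 0.219% and 0.0931% of all genes were, and all 4 are also class genes of enteric neurons. By any size 5 of the 18 (27.8%) were higher and 3 (16.7%) lower on every plate, where 13.0% and 15.1% of all genes were. Vgf, a secreted neuropeptide precursor induced by growth factors, differed by 1.65, 1.01 and 0.29, and Bdnf, a neurotrophin, by 1.06, 0.32 and 0.49. Cdkn1a went the other way, with -0.95, -1.29 and -0.95, and Scg2 had no common direction, with 1.30, -0.33 and 0.36. Other lists of signalling and stress held no called gene, and at those shares of all genes lists this short need hold none. Of 15 compared feedback inhibitors of MAP kinase and cytokine signalling none was called, and 6 (40.0%) were higher on every plate, where 13.0% of all genes were. Spry2, an inhibitor of receptor tyrosine kinase signalling, differed by 0.78, 1.97 and 1.40, and Dusp6, a phosphatase of ERK, by 2.16, 1.09 and 0.16. Of 23 genes of the cAMP and CREB pathway none was called, 4 (17.4%) were higher and 5 (21.7%) lower on every plate, where 13.0% and 15.1% of all genes were, and the median of the mean differences was 0.02. None of 14 heat shock, 15 unfolded protein response and 22 axon injury genes was called. Higher on every plate by any size were 14.29%, 13.33% and 13.64% of these lists, where 13.0% of all genes were. Lower on every plate were 28.57%, 13.33% and 22.73%, where 15.1% of all genes were. Hspb1, a small heat shock protein, differed by 0.94, 0.63 and 1.82, and by -0.61 on plate 2 without the neurons that carried smooth muscle RNA, while Hsp90aa1, the inducible chaperone HSP90, differed by -0.10, -0.27 and -0.59. Of 12 compared inflammatory genes 6 (50.0%) were higher on every plate, where 13.0% of all genes were, and none was called. It was 3 of 10 (30.0%) without the neurons that carried smooth muscle RNA. Ccl2, a chemokine, differed by 1.67, 0.29 and 0.84 in all neurons and by 0.81, -0.05 and 0.82 without those neurons.

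Ranked by the smallest of the 3 plate differences, the leading higher genes lay outside the early lists. Lrrn3 (chr12:41451668-41486431), a leucine-rich repeat membrane protein of neurons, ranked highest. It ran over 0, 5.06 and 7.61 in Fos-high and 0, 1.53 and 8.15 in Fos-low neurons on plate 1. On plate 2 it ran over 0, 3.65 and 7.01 in Fos-high and 0, 0.04 and 5.51 in Fos-low neurons, and on plate 3 over 0, 4.72 and 6.98 in Fos-high and 0, 0 and 6.07 in Fos-low neurons. Single neurons were thus mostly either near 0 or well above 2, and the classes differed in how many were above. Lrrn3 was at 2 or more in 20 of 23, 13 of 22 and 8 of 13 Fos-high neurons and in 12 of 24, 5 of 18 and 10 of 37 Fos-low neurons. The means differed by 2.31, 2.17 and 2.25, and only 1 of 55 non-neuronal cells had it at 2 or more.

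Pcp4l1 (chr1:171173262-171196268), a relative of the calmodulin-binding protein PEP-19, had medians of 8.54, 8.36 and 7.35 in Fos-high and 6.64, 5.86 and 3.10 in Fos-low neurons. Its means differed by 2.81, 1.88 and 3.02. Over all 149 neurons Pcp4l1 was also the gene most like Fos, with a Spearman correlation of 0.44, 0.36 and 0.47 on plates 1, 2 and 3 and a mean of 0.42. The next were Tceal6 with a mean of 0.40, Resp18, an endocrine secretory protein, with 0.40, Dad1, a subunit of the oligosaccharyltransferase, with 0.40, and Cox7c, a subunit of cytochrome c oxidase, with 0.40. These means hide unlike plates. On plates 1, 2 and 3 Tceal6 had 0.559, 0.307 and 0.331 and Resp18 had 0.498, 0.578 and 0.115. Dad1 had 0.442, 0.582 and 0.164, and Cox7c had 0.354, 0.193 and 0.641. The correlations are across cells that share plates and pools and are descriptions only.

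Of the neuropeptide genes on the transmitter list, Cartpt, Penk and Adcyap1 were called higher and Tac1 lower. Others were lower in Fos-high neurons on every plate by any size without a call, with differences of -0.78, -0.38 and -1.12 for Gal, galanin, -1.40, -0.29 and -0.98 for Grp, gastrin-releasing peptide, and -1.01, -0.16 and -0.34 for Sst, somatostatin. Vip, vasoactive intestinal peptide, differed by -1.43, 0.02 and -1.03, and Cck, cholecystokinin, by 0.59, 0.23 and 0.57. Cartpt (chr13:99898489-99901091), the precursor of CART peptides, ran over 2.81, 9.30 and 12.5 in Fos-high and 0, 4.86 and 11.3 in Fos-low neurons on plate 1. On plate 2 it ran over 2.17, 7.96 and 11.9 in Fos-high and 0.98, 4.38 and 13.5 in Fos-low neurons. On plate 3 it ran over 1.11, 9.18 and 11.8 in Fos-high and 1.32, 7.14 and 13.2 in Fos-low neurons. High values occurred in both classes, whereas low values were mostly in Fos-low neurons. The means of the log values differed by 3.21, 2.33 and 1.59. Linear means were 1145 RPKM in Fos-high and 420 RPKM in Fos-low neurons on plate 1 and 834 and 783 RPKM on plate 3. On plate 2 their order was the other way, with 681 RPKM in Fos-high and 1300 RPKM in Fos-low neurons.

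Penk (chr4:4133531-4138819), the enkephalin precursor, had medians of 13.2, 11.4 and 13.0 in Fos-high and 11.1, 8.57 and 11.2 in Fos-low neurons, with differences of 2.48, 1.20 and 2.21. Without the neurons that carried smooth muscle RNA its differences were 2.25, 0.16 and 2.32, and it was no longer called. Adcyap1 (chr17:93199017-93206537), the precursor of PACAP, had medians of 7.42, 5.12 and 5.27 in Fos-high and 3.85, 0.79 and 0.94 in Fos-low neurons, with differences of 2.81, 1.92 and 1.20. All 3 peptide genes had higher medians in Fos-high neurons on every plate.

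Penk and Cartpt were so abundant that a low level need not come from the cell itself. Penk was at 2 or more in 54 of 55 non-neuronal cells (98.2%, median 3.63) and in all compared neurons. Cartpt was at 2 or more in 28 of 55 non-neuronal cells (50.9%). Median reads were 4218191 per neuron and 3964007 per non-neuronal cell. With values under 1% of the highest value of the plate set to 0, Penk was at 2 or more in 46 of 58 Fos-high neurons (79.3%) and 49 of 79 Fos-low neurons (62.0%), and in 3 of 55 non-neuronal cells. By the same measure Cartpt was at 2 or more in 44 Fos-high neurons (75.9%), 38 Fos-low neurons (48.1%) and 1 non-neuronal cell.

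Among receptors and signalling genes, Glp1r (chr17:30901817-30940791), the receptor of glucagon-like peptide 1, had medians of 5.27, 0.05 and 4.02 in Fos-high and 0.29, 0 and 0 in Fos-low neurons. It was at 2 or more in 18 of 23, 9 of 22 and 7 of 13 Fos-high neurons and in 9 of 24, 2 of 18 and 11 of 37 Fos-low neurons, with mean differences of 2.65, 1.62 and 1.35. Gna14, a G protein subunit of the Gq class, differed by 2.54, 1.69 and 2.27. Fgfr1, a fibroblast growth factor receptor, differed by 1.63, 1.45 and 1.38. Gnb3, a G protein beta subunit, Kcng1, a modifier subunit of voltage-gated potassium channels, and Tnfrsf21, a death receptor, were also called, Gnb3 not without the neurons that carried smooth muscle RNA (2.07, 1.58 and 0.89). Rspo2, a secreted enhancer of Wnt signalling, differed by 2.70, 1.63 and 1.15.

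Etv1 (chr12:38779380-38870484), an ETS transcription factor that marks classes of enteric neurons, had medians of 5.75, 5.10 and 6.06 in Fos-high and 3.48, 2.31 and 4.72 in Fos-low neurons, with differences of 1.85, 1.71 and 1.46. Nefm, the medium neurofilament protein, differed by 2.66, 1.73 and 2.02, and Nefl, the light one, by 2.98, 1.12 and 2.30. Annotated exons of Nefm and Nefl overlap on opposite strands, so their reads are not fully separate. Exons on the opposite strand also overlap Penk (A830012C17Rik), Fgfr1, Phlda1, Prss12, Cntn5, Syp, Ahr, Plppr4, P2ry1, Fosl1 (Ccdc85b), Jun and Junb (Prdx2), and reads of such pairs cannot be told apart without the strand. Tceal6, an X-linked gene with close relatives that may share its reads, differed by 2.65, 1.69 and 1.94. Rerg, a Ras-like GTPase, differed by 1.52, 1.61 and 1.63. Tm4sf4, a membrane protein with 4 transmembrane segments, differed by 2.44, 2.48 and 1.32. Phlda1, a pleckstrin homology gene that is also induced early by stimuli, differed by 1.33, 1.31 and 2.78.

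Klhl1, a kelch protein of neurons, Serpini1, the protease inhibitor neuroserpin, Prss12, the protease neurotrypsin, Tmeff2, a membrane protein with follistatin domains, Nrip3, and Cntn5, a contactin of neuronal contacts, were also higher, with mean differences between 1.28 and 1.72. Leaving out the neurons that carried smooth muscle RNA ended the call of Serpini1 (2.02, 0.91 and 1.72), of Prss12 (1.75, 1.02 and 0.43) and of Nrip3 (1.72, 2.07 and 0.91). Also called higher were Tbx3os2, an antisense transcript, with 1.26, 1.13 and 2.02 (0.88 on plate 2, and no call, without the neurons that carried smooth muscle RNA), Rn7sk, the small nuclear RNA 7SK, with 1.23, 1.89 and 1.79, and the gene model Gm5454, with 1.66, 1.44 and 1.25. Myl9, a myosin light chain of smooth muscle, differed by 1.48, 1.29 and 1.48. Without the neurons that carried smooth muscle RNA, Myl9 differed by 0.75, 0.31 and 0.17. All 7 compared genes of the smooth muscle list, which does not hold Myl9, were higher on every plate and none was called. Among them was Acta2, smooth muscle actin, by 1.17, 0.90 and 1.35, and by 0.33, 0.365 and -0.36 without those neurons. Without those neurons 47 genes were called higher (0.313% of 15017), 23 of them among the 33, and all 33 remained above 0 on every plate.

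**Figure D3:**
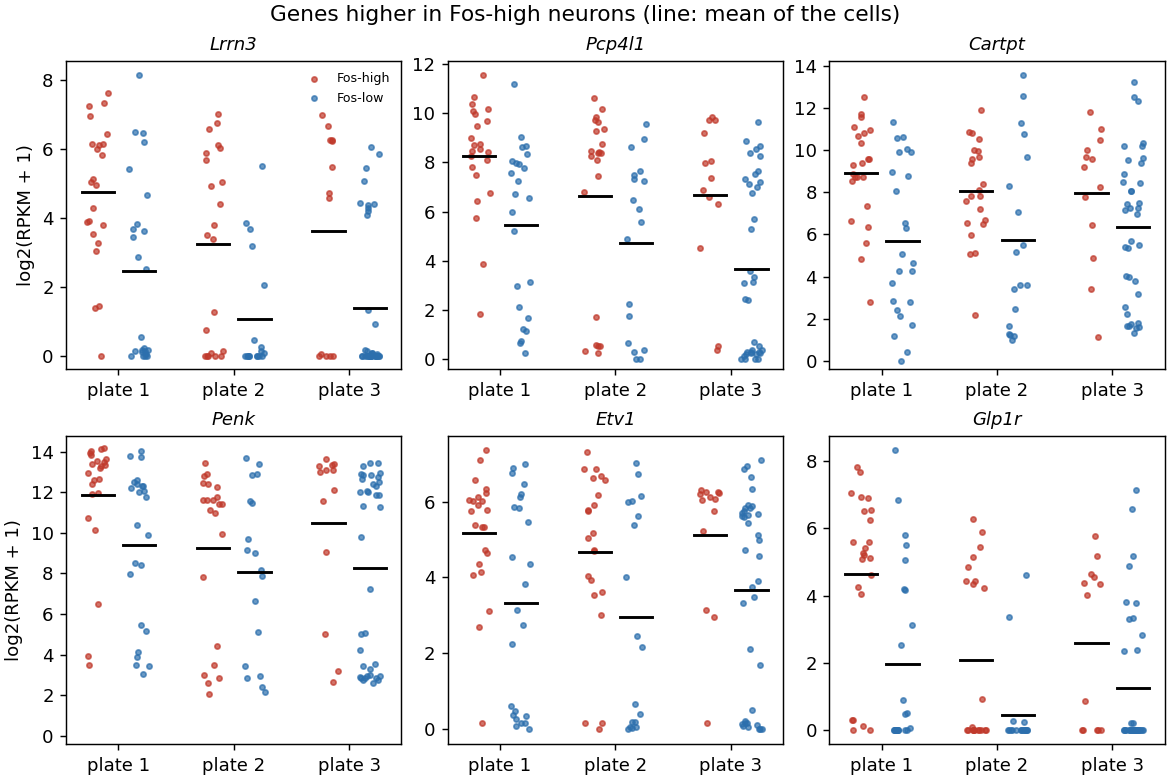
Lrrn3, Pcp4l1, Cartpt, Penk, Etv1 and Glp1r in single neurons, as log2(RPKM + 1), with Fos-high neurons in red left of Fos-low neurons in blue on each plate and a line at the mean of the cells. In each panel both classes reach high values, and the line is higher in Fos-high neurons in all 18 pairs.

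Genes lower in Fos-high neurons were fewer. Syp (chrX:7638471-7653256), the synaptic vesicle protein synaptophysin, had the largest mean difference among them. On plate 1 it ran over 0, 2.21 and 6.23 in Fos-high and 0, 6.07 and 7.79 in Fos-low neurons. On plate 2 it ran over 0, 4.15 and 7.06 in Fos-high and 0.41, 6.03 and 8.63 in Fos-low neurons, and on plate 3 over 0, 2.33 and 7.62 in Fos-high and 0.13, 6.11 and 8.29 in Fos-low neurons. The classes overlapped, with most Fos-low neurons at the upper end. The means differed by -2.56, -1.73 and -2.37, and Syp was at 2 or more in 33 of 58 Fos-high and 66 of 79 Fos-low neurons. Other vesicle and synapse genes did not share this: Vamp2, the vesicle SNARE synaptobrevin, differed by -0.03, -0.08 and -0.27, and Syn1, synapsin, by 0.15, -0.36 and -1.02.

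Tac1 (chr6:7554879-7565834), the precursor of substance P and neurokinin A and a marker of excitatory motor neurons, was the peptide gene called lower. It had medians of 0.98, 0.65 and 0.27 and highest values of 7.32, 9.66 and 2.28 in Fos-high neurons. In Fos-low neurons the medians were 1.26, 2.29 and 0.52 and the highest values 10.3, 10.1 and 10.6. On each plate the strongest Tac1 neuron was thus Fos-low, and the means differed by -1.91, -2.27 and -2.20. Tac1 was at 2 or more in 12 of 58 Fos-high neurons (20.7%, 11.2 to 33.4) and 32 of 79 Fos-low neurons (40.5%, 29.6 to 52.1), and in 3 of 55 non-neuronal cells (5.45%). Counted the other way, 12 of 48 neurons with Tac1 at 2 or more were Fos-high (25.0%), against 45.5% of neurons with Tac1 below 2. The shares were 31.8% with Tac1 and 51.6% without it on plate 1, 28.6% and 62.1% on plate 2, and 8.33% and 29.3% on plate 3.

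Receptors for acetylcholine and nucleotides were also among the lower genes. P2ry1, a purine receptor, differed by -1.39, -1.38 and -1.15 and was at 2 or more in 11 of 58 Fos-high and 28 of 79 Fos-low neurons. Chrm4, an inhibitory muscarinic receptor, differed by -1.32, -1.24 and -1.07, and by -1.37, -0.96 and -0.86, without a call, when the neurons that carried smooth muscle RNA were left out. Chrm1, a muscarinic receptor of the Gq class, was lower by any size on every plate, with -1.57, -1.42 and -0.45. Without the neurons that carried smooth muscle RNA its plate 3 difference was -0.02. Of 28 compared channels and receptors of excitability 1 was called lower and none higher, where 0.0931% and 0.219% of all genes were. By any size 7 (25.0%) were lower and 1 (3.57%) higher on every plate, where 15.1% and 13.0% of all genes were. The median of the mean differences was -0.20, against -0.02 over all genes compared. Without the neurons that carried smooth muscle RNA 5 of 27 (18.5%) were lower and 5 higher, and the median was -0.02. The nicotinic receptor subunit gene Chrna3 differed by only -0.08, -0.18 and -0.16.

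Plppr5 and Plppr4, phospholipid phosphatase related membrane proteins of growing neurites, differed by -2.01, -1.62 and -1.75 and by -1.76, -1.65 and -1.15. Ahr, the aryl hydrocarbon receptor, a ligand-activated transcription factor, had medians of 1.77, 0.54 and 1.08 in Fos-high and 3.70, 2.25 and 3.89 in Fos-low neurons, with differences of -1.72, -1.26 and -1.97. Hoxc4, a homeobox transcription factor, Arhgef28, a guanine nucleotide exchange factor, and Vstm2l, an immunoglobulin domain protein, were called lower as well. So were Dmkn, Cldn11, a claudin, and Scx, a basic helix-loop-helix factor. Without the neurons that carried smooth muscle RNA all 14 remained below 0 on every plate, but Hoxc4 (-1.86, -0.92 and -1.42), Arhgef28 (-1.20, -1.05 and -0.65) and Scx (-1.44, -1.50 and -0.82) were no longer called.

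**Figure D4:**
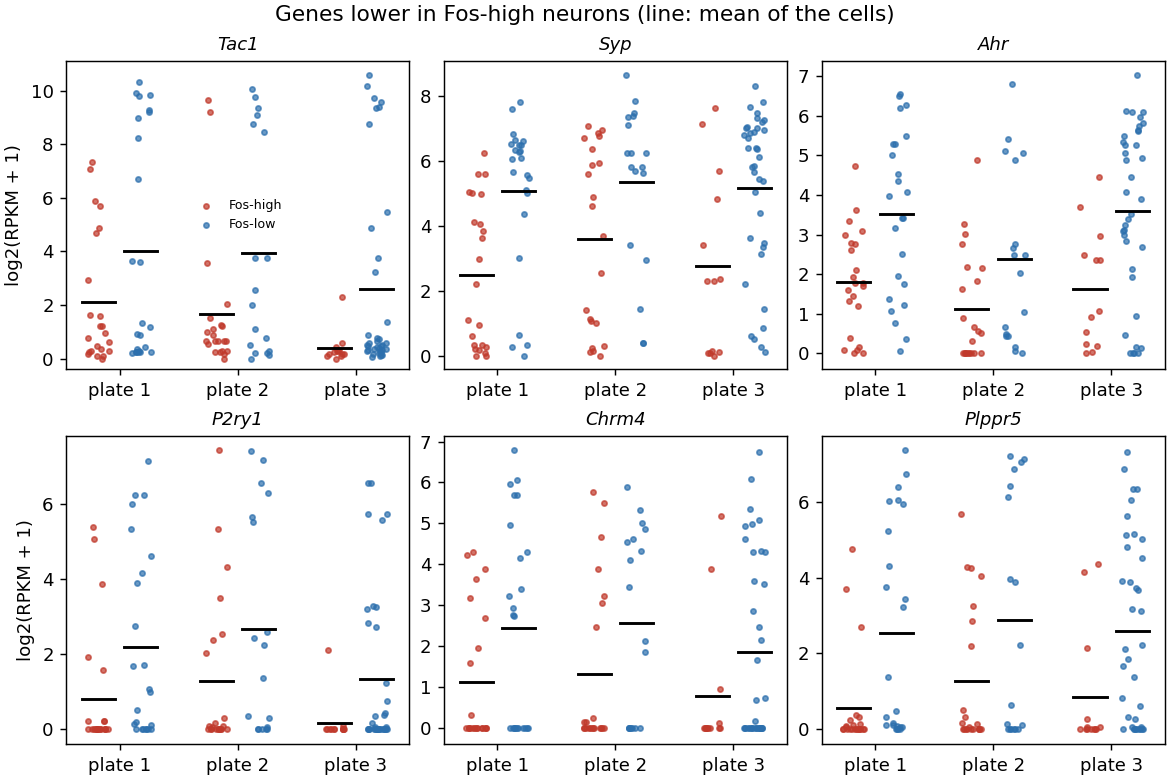
Tac1, Syp, Ahr, P2ry1, Chrm4 and Plppr5 in single neurons, as log2(RPKM + 1), with Fos-high neurons in red left of Fos-low neurons in blue on each plate and a line at the mean of the cells. The line is lower in Fos-high neurons in all 18 pairs, and the strongest Tac1 neuron of each plate is Fos-low.

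The transmitter classes of enteric neurons were spread over both Fos classes. Chat, the enzyme of acetylcholine synthesis, was at 2 or more in 43 of 58 Fos-high neurons (74.1%, 61.0 to 84.7) and 55 of 79 Fos-low neurons (69.6%, 58.2 to 79.5). Nos1, neuronal nitric oxide synthase, was at 2 or more in 23 Fos-high neurons (39.7%, 27.0 to 53.4) and 28 Fos-low neurons (35.4%, 25.0 to 47.0). The intervals pool the cells of 3 plates and cover counting error only, so their overlap does not show that the classes are alike. Chat was at 2 or more in 20 of 23 Fos-high and 20 of 24 Fos-low neurons on plate 1. These were 13 of 22 and 13 of 18 on plate 2, and 10 of 13 and 22 of 37 on plate 3. The differences of the means were -0.65, -0.46 and 1.05 for Chat and 0.67, 0.64 and -0.05 for Nos1, without 1 sign on all plates. The differences of Nos1 were 0.80, 1.31 and 0.60 without the neurons that carried smooth muscle RNA. Dbh, the enzyme of noradrenaline synthesis, was at 2 or more in 35 Fos-high neurons (60.3%) and 28 Fos-low neurons (35.4%), with differences of 2.48, 1.18 and 0.92. Calb2, the calcium-binding protein calretinin, was at 2 or more in 16 Fos-high neurons (27.6%) and 31 Fos-low neurons (39.2%), with differences of -2.21, 0.07 and -1.46. Of 29 compared genes of the transmitter list 5 were called higher (Cartpt, Penk, Adcyap1, Etv1 and Nefm) and 1 lower (Tac1), where 0.219% and 0.0931% of all genes were.

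The called genes were also correlated with each other within each class. Within Fos-high neurons the median Spearman correlation among the 33 higher genes was 0.37, 0.33 and 0.43 on plates 1, 2 and 3 (23, 22 and 13 cells). Among the 14 lower genes it was 0.22, 0.20 and 0.22, and between a higher and a lower gene it was -0.07, -0.12 and -0.08. Over all pairs of compared genes it was 0.04, 0.08 and 0.13 in the same neurons. Within Fos-low neurons (24, 18 and 37 cells) it was 0.46, 0.29 and 0.29 among higher genes, 0.49, 0.43 and 0.24 among lower genes and -0.34, -0.26 and -0.06 between them, against 0.04, 0.05 and 0.12 over all pairs. The called genes were chosen from these same cells for large differences, and the pairs of all compared genes were not matched to them in level. The medians of called and of all genes are therefore not on the same footing. The cells of a plate share a pool and a library step, and these values are descriptions.

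Because Tac1 neurons were unevenly shared between the classes, the comparison was repeated in neurons with Tac1 below 1, a limit chosen after the values were seen. It left 12 Fos-high and 11 Fos-low neurons on plate 1, 14 and 7 on plate 2, and 12 and 25 on plate 3. Of 14832 genes 10 were then called higher (0.0674%), 6 of them among the 33, and 3 lower, 1 of them among the 14. Of the 33 higher genes 28 remained above 0 on every plate, and of the 14 lower genes 4 remained below 0. Of those 14, Tac1, which the limit itself removes, and Cldn11 were not compared here, so they neither kept nor lost a direction. Nr4a1 differed by 2.38, 1.99 and 1.65, Penk by 1.83, 1.58 and 2.54, and Gadd45b by 1.05, 1.21 and 1.97. The early gene Plk2 lost its common direction, with -0.334, 1.192 and 1.065, as did Rerg, with -0.236, 0.524 and 0.743. Among lower genes P2ry1 differed by -0.32, 0.04 and -0.30, and Plppr5 by -0.30, 0.86 and -1.58. Etv1 differed by 0.48, 0.79 and 0.43, and Syp by -2.61, -0.24 and -2.63. In neurons with Chat at 2 or more, 46 of 15228 genes (0.302%) were called higher, 24 of them among the 33, and in neurons with Cartpt at 2 or more 20 of 15197 (0.132%), 18 of them among the 33. Without the 2 Fos-high and 3 Fos-low neurons over 20% mitochondrial reads it was 31 of 14923 (0.208%), 27 of them among the 33. Whether the smaller number of genes with Tac1 below 1 came from fewer neurons or from the loss of Tac1 neurons was not tested.

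The hairpin rows of microRNA genes gave another pair of sequences. Reads on these rows come from a poly(A) library and count longer transcripts across the hairpin, not the mature microRNA. Annotated exons of 2010111I01Rik overlap Mir24-1 and Mir27b on the same strand and Mir3074-1 on the opposite strand. Reads on those rows may therefore be of that gene. Mir212 was called higher, with differences of 1.29, 1.33 and 1.09, and its neighbour Mir132 missed the call, with 0.73, 0.89 and 1.42. Both come from a locus known in neurons as a target of CREB, and their mature products share the seed AACAGUC. Mir3074-1 was called lower, with differences of -1.29, -1.38 and -1.58. Neither row kept its call without the neurons that carried smooth muscle RNA, with 1.44, 2.25 and 0.67 for Mir212 and -1.35, -1.55 and -0.83 for Mir3074-1. Mir3074-1 lies opposite Mir24-1 on the same stretch of chr13. On plates 2 and 3 the Mir24-1 row gave nearly the same differences, -1.38 and -1.59, whereas on plate 1 it was listed at 0 in every compared neuron. Mir3074-1 had a median of 0 and a highest value of 5.55 in Fos-high neurons there, against 3.52 and 6.56 in Fos-low neurons. The sources used here do not give why the rows part on plate 1, and without strand the reads of the pair cannot be told apart. Mir27b of the same cluster differed by -2.06, -0.86 and -1.71. The mature RefSeq sequences are given with the seed, bases 2 to 8, in capitals.
miR-212-3p: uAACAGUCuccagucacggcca
miR-132-3p: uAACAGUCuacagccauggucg
miR-24-3p: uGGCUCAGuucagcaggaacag
miR-27b-3p: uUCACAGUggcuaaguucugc
miR-3074-5p: gUUCCUGCugaacugagccagu
On GRCm38.p6 miR-212-3p lies at chr11:75173443-75173464 and miR-132-3p at chr11:75173723-75173744, both on the plus strand. Likewise on the plus strand, miR-24-3p lies at chr13:63301251-63301272 and miR-27b-3p at chr13:63300760-63300780, and miR-3074-5p lies at chr13:63301249-63301270 on the minus strand. A hairpin is short, so its level rests on few reads, and 25 of 58 Fos-high and 18 of 79 Fos-low neurons had Mir212 at 2 or more when values under 1% of the plate's highest were set to 0.

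The 12 neurons with Fos from 1 to below 3, which the comparison did not use, were set against the same Fos-low neurons of their plates. The 2 comparisons share those Fos-low neurons, so their directions are not independent. Over the 33 higher genes the median difference was 0.63 in these neurons and 1.66 in Fos-high neurons weighted to the same plates. Over the 14 lower genes it was -0.38 in these neurons and -1.54 in Fos-high neurons. Cartpt stood 1.89, Gadd45b 1.90 and Nr4a1 1.43 above Fos-low in these neurons, Pcp4l1 only 0.27, and Tm4sf4 stood at -0.71. The microRNA rows also went the other way, since Mir212 was at 0 in all 12 neurons (-1.27) and Mir3074-1 stood at 0.71.

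In the 55 non-neuronal cells, those with Fos at 3 or more (6, 8 and 9 on plates 1, 2 and 3) were set against those with Fos below 1 (7, 13 and 6). Of the 33 higher genes 6 had the same sign on every plate and 3 the opposite, and of the 14 lower genes 1 and 3. The shares of all genes with such signs in these cells were not counted, so no agreement or disagreement is read from these counts. Nr4a1 was higher there by 0.96, 2.06 and 1.87 and Gadd45b by 0.64, 3.98 and 3.49. Egr1 was higher by 4.34, 4.18 and 3.87, and Fosb by 1.01, 2.66 and 2.24, and on each plate both values exceed those in neurons, a difference that was not tested. Cartpt, in contrast, differed by -0.19, 0.75 and -1.82 and had no common direction. Myl9 differed by 2.89, 4.64 and 5.97. These cells are of several types and were not sorted by type, so what the Fos-high cells among them share besides Fos cannot be told apart from their type.

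**Figure D5:**
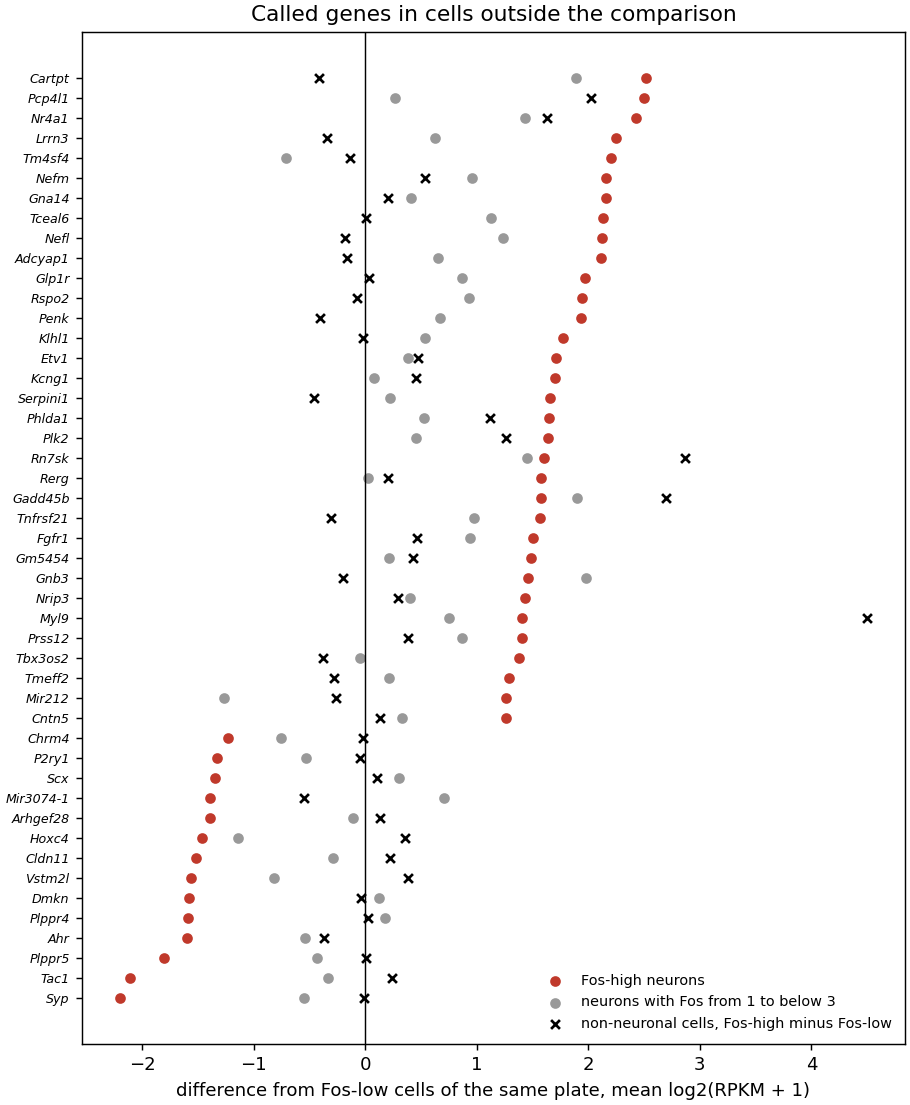
Difference from Fos-low cells of the same plate, as mean log2(RPKM + 1), for the 33 higher and 14 lower genes. Red points are Fos-high neurons, grey points the 12 neurons with Fos from 1 to below 3, and crosses the non-neuronal cells, Fos-high minus Fos-low; grey and red points share the Fos-low neurons, and the crosses farthest right are Myl9, Rn7sk and Gadd45b.

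Motif matches were also counted near the start sites of the called genes. Of the 33 higher genes 19 matched a RefSeq promoter by symbol, and the full cAMP response element was in 2 of them (Cartpt and Plk2), where 1.79% of all promoters hold it. The core was in 6 (Adcyap1, Cartpt, Klhl1, Nr4a1, Plk2 and Tceal6), where 20.8% of promoters hold it, and the AP-1 motif in 1 (Tbx3os2), where 7.81% do. A gene can have several promoters in the table, so shares of genes and of promoters are not on the same footing. Of the 14 lower genes 10 matched, with the full element in none, the core in 2 (Dmkn and Tac1) and the AP-1 motif in 1 (Dmkn). The windows cover 300 bases and say nothing about enhancers farther away.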

How the data were processed

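Single picked cells were sequenced as polyadenylated RNA, 1 library per cell and 1 pool per plate, and carried no molecular identifiers, so values rest on reads. The table deposited by the authors holds 49492 gene rows by 204 cells as log2(RPKM + 1); RPKM is reads per kilobase and per 1000000 reads, and the values themselves showed the base and the added 1. The genome build was mm10, per the submitters' processing notes; which aligner and counter were used, and whether strand was counted, is not given in the sources used here. A further 3 single-cell files deposited by the authors repeat columns of the table and were not used. All columns were matched to cells by the labels.

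Whole reads were recovered from the table with exon lengths of GENCODE M21, or for 6292 genes the shortest length giving whole reads throughout; 100% of 2375655 values came out whole within 0.01. Cells had 453010 to 14310598 reads. The design fixed the unit as log2(RPKM + 1), and differences of cell means were taken per plate where each class had at least 5 cells. Genes at 2 or more in 10% of compared neurons were kept, and a call needed a difference of 1 on all 3 plates. Plates are the batch in the labels, so values are given within plates; plates 2 and 3 also share a library naming and a series of sequencer indices that plate 1 does not, so they may be less independent of each other. Cell numbers in the labels only name cells. The steps were tested on simulated data.

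Named genes were, per direction, the 12 called genes with the largest smallest-plate difference at 2 or more in 50% of the higher class on each plate, all AP-1 genes, 8 genes each of the other early lists, 2 of every other list, the 5 genes most like Fos, and Chat, Nos1 and Slc17a6. The 8 were those with the largest smallest-plate difference of 1 sign. The 2 were those with the largest mean difference of 1 sign on every plate. Other called genes, list members and microRNA rows were named after their values were seen. The members and the 22 lists were chosen with earlier results of these data known. Shares have exact Clopper-Pearson 95% intervals, which cover counting error only. Python 3.11.15, numpy 2.4.6, scipy 1.17.1 and pandas 2.3.3 were used. Sequences are from RefSeq tables of GRCm38.p6. The alternatives were other scales, pseudocounts, Fos limits and neuron rules, thinning to 500000 reads, removal of cells with RNA of other types or over 20% mitochondrial reads, and leaving out each plate.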

Additional observations from a re-analysis of the deposited data

Results flagged for a closer look

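In 6 of the called genes the non-neuronal cells differed between Fos classes in the direction opposite to neurons on every plate. The share of all genes that do so was not counted, so this number may be no more than that of other genes. These differences between neurons and other cells were not tested, and they are small beside those in neurons. Among genes lower in Fos-high neurons, the mean difference in non-neuronal cells was 0.36 for Hoxc4, 0.39 for Vstm2l and 0.22 for Cldn11, against -1.47, -1.67 and -1.47 in neurons. Among genes higher in Fos-high neurons, it was -0.46 for Serpini1, -0.20 for Gnb3 and -0.31 for Tnfrsf21, against 1.64, 1.42 and 1.51 in neurons. Most non-neuronal cells had little of these transcripts: Hoxc4 was at 2 or more in 8 of 55, Serpini1 in 5 and Gnb3 in 1.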

How the results depend on the processing

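No test was made, so results were compared by how many genes were called. The 33 higher genes (0.219% of those compared), 14 lower genes (0.0931%) and 3 early genes moved by over 1.5 times under the following alternatives. The ratio of mean RPKM called 0.332% higher and 0.266% lower, and medians 0.425% and 0.179%. A pseudocount of 0.1 called 0.811% and 0.319%, with 6 early genes, and a pseudocount of 10 called 0.0465% and 0.0133% (7 and 2 genes), with 0 early genes. With Fos at 5 or more, which only plates 1 and 2 allowed, 0.478% were higher and 0.956% lower, and the share of Fos-high neurons was 21.5% in place of 38.9%. Against Fos at 0, 0.495% were higher and 6 early genes called. With classes split at 2, or without neurons carrying smooth muscle RNA, 1 early gene was called, Nr4a1. A difference of 2 left 1 gene higher (0.00665%) and 0 lower. Of the settings chosen after seeing the data, Tac1 below 1 gave 0.0674% and 0.0202%, Chat at 2 or more gave 0.204% lower, and Cartpt at 2 or more gave 0.132% higher. Leaving out a plate, with 2 plates then needed, gave 0.425 to 0.525% higher, 0.193 to 0.299% lower and 5 to 6 early genes, and the share of Fos-high neurons ran over 34.0 to 46.9%. The 33 and 14 genes kept their direction on every plate used under each setting, except with the ratio of mean RPKM (30 and 14), medians (32 and 11) and Tac1 below 1 (28 and 4, with Tac1 and Cldn11 not compared). Where a plate was left out or the filter on low values dropped, the call rule itself fixed this outcome. The other settings share most of their cells with the main comparison. With the ratio of mean RPKM 7 of the 33 and 10 of the 14 stayed called, the early genes called were Zfp36l1 and Gem in place of Nr4a1, Gadd45b and Plk2, and Cartpt had a mean of 0.20. Dmkn changed direction, to 0.28, with Tac1 below 1, and the cause was not tested. No paired analysis was possible because the results come from no test and cell numbers only name cells; the differences themselves were taken within plates. Reads misassigned between wells limit low levels of abundant transcripts. With values under 1% of the plate's highest set to 0, 22 genes were called higher and 11 lower, 20 and 10 of them among the 33 and 14.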
